A study of Homo sapiens with 26 samples.

Results

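The transcriptome of OCI-Ly7, an established human cell line of diffuse large B cell lymphoma of the germinal centre type, was compared between cells in which POU2F2 was repressed and cells with control guides. The members were taken by the sample titles: 8 files of OCI-Ly7 POU2F2 knockdown and 6 files of OCI-Ly7 control, 14 of the 26 files in the series. The others are 6 files of POU2AF1 knockdown in the same line and files of a second lymphoma line, SUDHL4, which appear below only where they are set beside the OCI-Ly7 values.

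POU2F2 encodes OCT2, a transcription factor of the POU family that is abundant in B cells and binds an octamer element found in immunoglobulin promoters and enhancers. OCT2 recruits the coactivator OCA-B, the product of POU2AF1, and its relative OCT1, the product of POU2F1, binds the same element in most cell types. In germinal centres, where activated B cells divide and are selected on their antigen receptor, OCT2 and OCA-B are known for supporting germinal centre genes, among them the one for the repressor BCL6.

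Both groups carried a lentivirally delivered fusion of catalytically inactive Cas9, blue fluorescent protein and the KRAB repressor domain (pHR-SFFV-dCas9-BFP-KRAB), which silences transcription where a guide RNA places it and does not cut DNA. Guides against POU2F2, or non-targeting guides in the controls, were added by a further lentivirus. All files are poly(A) RNA libraries made from Trizol extracts with a stranded, paired-end Illumina kit. The labels name control guides by a code (sg81) and give the knockdown libraries guide or cell codes that are not explained, so how many guides or clones the 8 knockdown files hold is not given in the sources used here. Control files 1, 2 and 3 are labelled batch 1, and control replicates 7, 8 and 9 and all 8 knockdown files are labelled batch 2. Within batch 2 the labels carry a series mark whose meaning they do not give: control 7 and knockdown 4, 5 and 6 have s0, control 8 and knockdown 2 and 7 have s2, control 9 and knockdown 8 have s3, and knockdown 1 alone has s1. Control file 3 and knockdown 3 carry a 48 h mark instead, and no time is given for the others. Nothing in the labels ties replicates to separate cultures, so the p-values below describe a spread among libraries, which may be technical. In the main fit that spread includes no repeat controls of the same mark.

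Control file 3 equalled the sum of control files 1 and 2 within 2 reads for 92.92% of 26871 genes, and files 1 and 2 differed by 1.546 times the sampling noise against 5.278 to 320.4 times for 37 other pairs of files in 1 group. The 3 files were therefore counted as 1 library, which left 4 control and 8 knockdown libraries. The knockdown files held 26764630 to 44803107 estimated reads, and control replicates 7, 8 and 9 held 29317267 to 32097255. Mitochondrially encoded genes took 9.54%, 9.566% and 13.177% of the reads in these controls and 8.21% to 13.44% in the knockdown files (exact two-sided permutation p = 0.424). Of the marker genes, those of B cells summed to 2160 to 3340 CPM (reads scaled to a common library size) in the control and 2160 to 3460 CPM in the knockdown libraries, while myeloid, erythroid and fibroblast markers summed to at most 1.47 CPM. Markers of T and NK cells summed to 27.3 to 42.2 CPM in control and 11.5 to 58.6 CPM in knockdown libraries, nearly all of it TRAC, with CD3D, CD2, NKG7 and GNLY at a median of 0. The 6 germinal centre markers summed to 897 to 1120 CPM in control and 832 to 1190 CPM in knockdown libraries, with LMO2 near 0 (median 0.03 CPM). Those of plasma cells summed to 309 to 388 CPM in control and 327 to 639 CPM in knockdown libraries. Of these IRF4 and XBP1 had medians of 194 and 151 CPM, PRDM1 of 4.02 CPM and SDC1 of 0.

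Deviations from the group means correlated at 0.331 to 0.686 over 6 control and knockdown pairs with the same series mark. Over 12 pairs of different marks the correlations ran from -0.727 to 0.465, so the ranges overlap. Knockdown 2 and 7 (s2) correlated at 0.404 and 0.331 with control 8 of their mark, and at 0.465 and 0.372 with control 9 (s3). These values set s0 apart but do not separate s2 from s3. The main comparison was made within series, as the labels mark them. It used the 3 controls of s0, s2 and s3 and the 6 knockdown libraries of the same marks (replicates 2, 4, 5, 6, 7 and 8). Each series holds a single control library, so the spread among controls of a series is not measured. The error of the fit rests on repeat knockdown libraries of s0 and s2 and on how the difference varies between series. Knockdown 4, 5 and 6 of s0 were the most alike of the knockdown files, at 5.278 to 9.152 times the sampling noise. Knockdown 1 has no control of its series mark. Knockdown 3 has no series mark and shares its 48 h mark with control file 3, which is part of the batch 1 control library. Both were used only afterwards, as libraries outside the fit. Knockdown 3 is labelled batch 2 but lay nearer the batch 1 control in many genes, and it is set beside that control. PDIA4, for example, was at 73.2 CPM in knockdown 3 and 78.3 CPM in the batch 1 control, and at 5.28 to 32.6 CPM in the 10 other libraries.

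POU2F2 itself, the repressed gene, was measured first. The gene (ENSG00000028277) lies on the minus strand of chromosome 19 from 42086110 to 42196585 in GRCh38. Its level was 238, 253 and 208.5 CPM in control replicates 7, 8 and 9. In the 6 knockdown libraries of the same series it was 56.9, 62.7 and 75.5 CPM (s0), 89.9 and 92.6 CPM (s2) and 65.1 CPM (s3). All 6 lay below every control. The control mean was 233 ± 22.6 CPM (SD, n = 3), the knockdown mean was 73.8 ± 14.9 CPM (SD, n = 6), and POU2F2 fell by 1.70 ± 0.093 on the log2 scale (standard error, edgeR adjusted p = 5.81e-05). Outside the fit, knockdown 1 held 59.4 CPM and knockdown 3 held 155 CPM, with 422 CPM in the batch 1 control. Over control 7, 8 and 9 and all 8 knockdown libraries the exact two-sided permutation p was 0.0121, the smallest that 3 against 8 libraries allow, in a test that exchanges libraries across series and so does not take the series into account. Its relative and its coactivator were not called: the fitted log2 difference was -0.04 ± 0.05 for POU2F1 and 0.01 ± 0.06 for POU2AF1 (adjusted p = 0.84 and 0.979), with POU2AF1 at 454 to 474 CPM in the controls and 417 to 546 CPM in the 6 knockdown libraries.

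**Figure D1:**
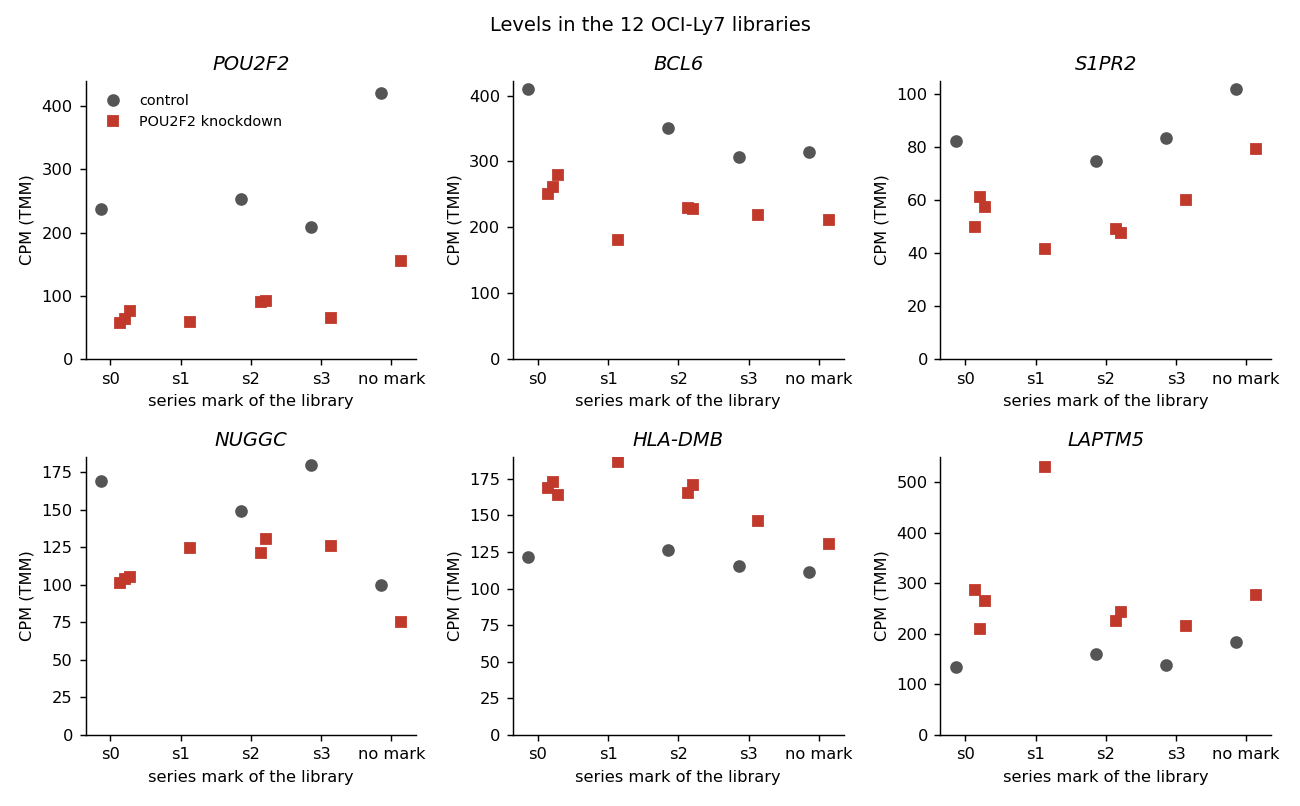
Level of 6 genes (CPM after TMM scaling, linear axis from 0) in the 12 libraries, one point per library, by series mark (libraries without a series mark stand at the right), with controls as grey circles and POU2F2 knockdown as red squares. POU2F2, BCL6, S1PR2 and NUGGC lie below and HLA-DMB and LAPTM5 above the control in s0, s2 and s3, while the level itself shifts between series.

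The reads of POU2F2 came mainly from 1 promoter. Of its 20 annotated transcripts 11 start in the 300 bases around the RefSeq start (GRCh38.p14, chr19:42132397-42132696, minus strand), and these held 95.8% to 99.1% of the POU2F2 reads in every one of the 12 libraries, control and knockdown alike. The window is shown because transcripts that start in it held most of the POU2F2 reads. It runs from 250 bases before to the 50 bases after the start, which stand in capitals. Where the guides bind, inside this window or outside it, is not given in the sources used here.
POU2F2 promoter: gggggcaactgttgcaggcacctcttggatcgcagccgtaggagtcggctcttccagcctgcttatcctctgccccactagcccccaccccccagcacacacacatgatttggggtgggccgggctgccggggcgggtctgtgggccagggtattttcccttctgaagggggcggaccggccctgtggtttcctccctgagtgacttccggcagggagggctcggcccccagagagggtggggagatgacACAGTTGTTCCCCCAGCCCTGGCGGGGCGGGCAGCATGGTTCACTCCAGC

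Genes near POU2F2 were looked at because KRAB can act beyond its target. Within 500 kb on either side 24 other genes were tested, and none was called by edgeR (1 had an unadjusted p below 0.05, and the smallest adjusted p was 0.376). Their log2 differences ran from -0.29 to 0.51 with a median of -0.04, and 16 of 24 were below 0. The highest was POU2F2-AS2, an antisense gene inside POU2F2, at 0.51 ± 0.21. How strand was used in counting is not given in the sources used here, so reads of this gene and of POU2F2 cannot be told apart with certainty. The next genes to either side, ZNF574 (-0.12 ± 0.11) and DEDD2 (-0.05 ± 0.10), differed by about their standard error.

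Beyond the target most called changes in OCI-Ly7 were below 2-fold. Of 15463 genes tested within series 54 were called at an edgeR adjusted p below 0.05 (0.349%), 33 higher (0.213%) and 21 lower (0.136%) in the knockdown, and 1803 had an unadjusted p below 0.05. The number depended on the method, with 313 called by DESeq2 and 633 by edgeR with no filter on low counts. Of the 54, 51 are protein coding. Apart from POU2F2, only SMIM11 and HHEX (higher) and RNU6-33P (lower) passed a 2-fold change. The median log2 change of the called genes was 0.52 for those that rose and -0.55 for those that fell. All 54 differed in the same direction in each of the 3 series and in all 6 knockdown libraries, which the fit within series used. In 23 of them, 13 higher and 10 lower, the 6 knockdown libraries also lay entirely beyond the 3 controls whatever their series. The same held for 1.63% of the 7050 tested genes with a positive and 0.713% of the 8413 with a negative difference. For the other 31 called genes the groups overlapped across series.

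The number of calls rested on single libraries. Leaving out 1 library at a time gave 10 calls without control 7, 38 without control 8, 5 without control 9, 12 without knockdown 2, 12 without knockdown 4, 13 without knockdown 5, 11 without knockdown 6, 59 without knockdown 7 and 9 without knockdown 8. All 54 genes kept their direction in these 9 fits. POU2F2, BCL6, LOXL2 and SMIM11 kept their call in all 9, HLA-DMB and RNU6-33P in 8, S1PR2 and PYHIN1 in 7, PDIA4 in 6 and IL7R in 5. Each other called gene kept it in 0 to 2 of the 9. Without the series block, with the same 9 libraries, only 2 genes were called, POU2F2 and SMIM11, and 215 had an unadjusted p below 0.05.

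BCL6 and 4 other genes of the germinal centre programme fell. In these bulk libraries fewer cells that express a gene and less RNA per cell cannot be told apart. BCL6, the transcriptional repressor that sets up and maintains germinal centre B cells, was at 410.5 CPM in control 7 against 250.5, 261 and 280.0 CPM in the knockdown libraries of s0. It was at 350 CPM in control 8 against 229.5 and 227 CPM in s2, and at 307 CPM in control 9 against 218.5 CPM in s3. No knockdown library reached a control. BCL6 fell by 0.61 ± 0.053 on the log2 scale (356 ± 51.8 CPM, SD, n = 3, to 244.5 ± 23.5 CPM, SD, n = 6, edgeR adjusted p = 0.000657). Knockdown 1, outside the fit, held the lowest level, 181 CPM. Knockdown 3 was at 211 CPM and the batch 1 control at 314 CPM.

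S1PR2, the sphingosine-1-phosphate receptor that holds B cells within the germinal centre, was at 82.2, 74.9 and 83.4 CPM in controls 7, 8 and 9. The knockdown libraries held 49.9, 61.3 and 57.2 CPM (s0), 49.0 and 47.6 CPM (s2) and 60.0 CPM (s3), again with no overlap. S1PR2 fell by 0.57 ± 0.070 on the log2 scale (adjusted p = 0.00838), and the call was lost without control 7 and without control 9 (adjusted p = 0.0589 and 0.0666). The annotated span of S1PR2 overlaps that of DNMT1, a called gene given below. NUGGC, a GTPase of the nucleus found in germinal centre cells, was at 169, 149 and 180 CPM in the controls and between 101 and 130.5 CPM in the 6 knockdown libraries, and fell by 0.52 ± 0.075 (adjusted p = 0.0264). PTPN18, a protein tyrosine phosphatase, was at 401, 354 and 368 CPM in the controls and between 248 and 291 CPM after knockdown, and fell by 0.46 ± 0.063 (adjusted p = 0.0181). For NUGGC and PTPN18 the groups did not overlap, and each kept its call in 2 of the 9 leave-out fits. MARCKSL1, a membrane-bound actin regulator, fell by 0.30 ± 0.049 (354.5 ± 26.7 to 303 ± 31.7 CPM, SD, n = 3 and 6, adjusted p = 0.0387), with knockdown 6 (344 CPM) above control 9 (327 CPM).

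Together, the list of germinal centre B cell identity genes had 34 tested members. Of these 5 were called lower (BCL6, S1PR2, NUGGC, PTPN18 and MARCKSL1), 1 was called higher (HHEX) and 28 were not called. Over all 15463 genes tested 0.136% were called lower and 0.213% higher. This list, like the others, was chosen with earlier results of these data known. Its median log2 difference was -0.03, against -0.02 over all genes tested, and at an unadjusted p below 0.05 its members lay on both sides, 14 lower and 7 higher. Without the call, the largest difference in it was that of MYBL1, a MYB family transcription factor, at -0.84 (80.4 to 45.9 CPM, adjusted p = 0.0587; named after its values were seen). PAX5, EBF1, BACH2 and MME, which also define germinal centre or mature B cells, had log2 differences of 0.01, 0.03, 0.00382 and 0.05, and the smallest of their adjusted p-values was 0.898 (MME). Of 10 tested genes described as octamer targets in B cells, BCL6 was the only one called. Of its members 4 had a positive and 2 a negative difference at an unadjusted p below 0.05. The median of that list was 0.06, with CD22 at -0.05, SPIB at 0.01 and BTK at 0.10, none of them called.

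HHEX, a homeobox factor known from memory B cell formation, was the only gene called higher in the germinal centre list and is also in the list of naive and memory B cell genes. It was near 1 CPM in each control (1.07, 1.11 and 1.25 CPM) and between 1.75 and 3.06 CPM in the 6 knockdown libraries, so that the groups did not overlap. HHEX rose by 1.08 ± 0.18 on the log2 scale (adjusted p = 0.0409), at a low level, and kept its call in 2 of the 9 leave-out fits.

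Genes of naive and memory B cells were the list with the highest median among the 25 with at least 5 tested members. Of 19 tested members, 3 were called higher (IL7R, FCMR and HHEX), 1 lower (CD1C) and 15 were not called, with a median log2 difference of 0.30 and 15 of 19 above 0, against 7050 of 15463 genes above 0 in all. By series the median was 0.45 in s0, 0.10 in s2 and 0.35 in s3. IL7R, a receptor subunit for interleukin 7, was at 51.9 CPM in control 7 and 79.0 to 93.0 CPM in the s0 knockdowns, at 94.1 CPM in control 8 and 127 and 135 CPM in s2, and at 99.6 CPM in control 9 and 131 CPM in s3. IL7R rose by 0.52 ± 0.072 (adjusted p = 0.0188), and the groups overlapped, with the s0 knockdowns below controls 8 and 9. Its call was lost without control 7, control 9, knockdown 2 or knockdown 8 (adjusted p = 0.0548 to 0.07). FCMR, the Fc receptor for IgM, rose by 0.97 ± 0.15 (adjusted p = 0.027) at levels that ran from 1.14 CPM in control 7 to 8.09 CPM in control 9, against 2.40 to 3.43 CPM in s0, 6.90 and 7.83 CPM in s2 and 14 CPM in s3. CD1C, which presents lipid antigens, fell by 0.55 ± 0.086 (adjusted p = 0.0296): control 7 was at 45.6 CPM against 29.7 to 34.7 CPM in s0, control 8 at 17.7 CPM against 10.2 and 13.2 CPM in s2, and control 9 at 15.5 CPM against 10.7 CPM in s3.

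Of the MHC class II genes 1 rose and most others lay above 0 without a call. HLA-DMB, a chain of the HLA-DM complex that loads peptides onto MHC class II, was at 121.5, 127 and 115 CPM in the controls and at 169, 173 and 164 CPM (s0), 166 and 171 CPM (s2) and 146 CPM (s3) in the knockdown. No library overlapped, and HLA-DMB rose by 0.40 ± 0.049 on the log2 scale (adjusted p = 0.00838), a call lost only without control 9 (adjusted p = 0.0666). It was the only one of 18 MHC class II genes called, but 16 of the 18 had a positive difference and 10 of them an unadjusted p below 0.05, with a list median of 0.17. Over all 15463 genes tested 7050 had a positive difference, 851 of them with an unadjusted p below 0.05. HLA-DMA, the partner of HLA-DMB, was at 0.24 (adjusted p = 0.0593) and HLA-DRA at 0.24 (adjusted p = 0.066), both named after their values were seen. The class II transactivator CIITA was at 0.02 and RFX5 at -0.01. B2M, the light chain of MHC class I, rose by 0.32 ± 0.049 (adjusted p = 0.027), with knockdown libraries at 699 to 986 CPM and controls at 567 to 726 CPM, and kept its call in 1 of the 9 leave-out fits. SP110, an interferon-induced nuclear body protein, rose by 0.54 ± 0.092 (18.7 ± 1.26 to 29.3 ± 6.23 CPM, SD, n = 3 and 6, adjusted p = 0.0417), with no overlap. It was the only one called of 30 interferon response genes, whose median was 0.18 with 23 above 0, against 7050 of 15463 genes in all.

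Receptors and adhesion genes of the B cell surface gave single calls. FCRL5, an Fc receptor-like protein that modulates antigen receptor signals, rose by 0.47 ± 0.079 (adjusted p = 0.0409). It was at 79.0 CPM in control 7 against 120 to 135 CPM in s0, at 170 CPM in control 8 against 205 and 250 CPM in s2, and at 162 CPM in control 9 against 206 CPM in s3. It was the only call among 36 B cell receptor signalling genes, whose median was 0.09. CXCR4, the chemokine receptor of the germinal centre dark zone, rose by 0.28 ± 0.051 (adjusted p = 0.0488) and kept its call in none of the 9 leave-out fits. RASSF5, an effector of the GTPase RAP1 in lymphocyte adhesion, rose by 0.55 ± 0.090 (36.3 ± 8.78 to 50.8 ± 5.31 CPM, SD, n = 3 and 6, adjusted p = 0.0371). CD69, an early activation antigen, rose by 0.64 ± 0.10 (adjusted p = 0.0371), from 11.5, 5.61 and 6.25 CPM in controls 7, 8 and 9 to 15.1 to 18.03 CPM in s0, 8.75 and 10.3 CPM in s2 and 10.99 CPM in s3. Of 28 migration and adhesion genes 2 were thus called higher and 1, S1PR2, lower. CD69 was the only call of 21 immediate early genes.

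Among the other genes that rose, LAPTM5 is a lysosomal membrane protein of blood cells. It was at 134, 160 and 138 CPM in the controls and at 288, 209 and 265 CPM (s0), 225 and 244 CPM (s2) and 215 CPM (s3) after knockdown, and rose by 0.70 ± 0.11 (log2, adjusted p = 0.0417). PLXNC1, a semaphorin receptor, went from 8.56 ± 1.73 to 13.02 ± 1.02 CPM (SD, n = 3 and 6), PDE4B, a phosphodiesterase that degrades cyclic AMP, from 11.4 ± 2.33 to 19.8 ± 2.10 CPM, and AAK1, a kinase of clathrin-mediated endocytosis, from 6.90 ± 0.46 to 12.4 ± 2.998 CPM. In all 3 the groups did not overlap, and the log2 changes were 0.65, 0.80 and 0.74 (adjusted p = 0.027, 0.0426 and 0.046). Of transcription factors, ZEB2 rose by 0.80 ± 0.14, ETV6 by 0.52 ± 0.085 and IKZF2, which encodes Helios, by 0.60 ± 0.10 (adjusted p = 0.0483, 0.038 and 0.0455). Their levels differed more between series than between groups: ZEB2 was at 1.70, 5.25 and 8.48 CPM in controls 7, 8 and 9 and at 3.49 to 4.78, 8.78 and 8.78, and 12.3 CPM in the knockdowns of the same series. PYHIN1, an interferon-inducible nuclear protein, rose by 0.58 ± 0.070 and ARL6IP5 by 0.54 ± 0.080 (adjusted p = 0.00838 and 0.027). These genes kept their call in 1 or 2 of the 9 leave-out fits, except PYHIN1, which lost it without control 9 and without knockdown 8 (adjusted p = 0.0666 and 0.059).

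Among the other genes that fell, LOXL2, a lysyl oxidase of the extracellular matrix, kept its call in all 9 leave-out fits. It was at 40.8, 39.1 and 35.8 CPM in the controls and at 29.5, 26.4 and 28.3 CPM (s0), 22.8 and 23.7 CPM (s2) and 26.8 CPM (s3) in the knockdown, a fall of 0.60 ± 0.071 on the log2 scale (adjusted p = 0.00838). GNB3, a G protein beta subunit, went from 33.4 ± 1.40 to 23.2 ± 2.69 CPM (SD, n = 3 and 6) and fell by 0.56 ± 0.083 (adjusted p = 0.027), and MYEOV fell by 0.72 ± 0.13 (8.35 ± 1.18 to 5.26 ± 0.70 CPM, SD, n = 3 and 6, adjusted p = 0.0455). The groups did not overlap for either, and both kept their call in 2 of the 9 leave-out fits. PDIA4, a protein disulfide isomerase of the endoplasmic reticulum, fell by 0.70 ± 0.088 (adjusted p = 0.0107), but only within series: control 7 was at 32.6 CPM against 18.4 to 22.5 CPM, control 8 at 14.5 CPM against 8.93 and 10.1 CPM, and control 9 at 9.54 CPM against 5.28 CPM. The call was lost without control 7, control 9 or knockdown 8 (adjusted p = 0.0684 to 0.0856). PDIA4 was the only call among 27 endoplasmic reticulum chaperones, whose median was -3.28e-05. ACSS2, which makes acetyl-CoA from acetate, fell by 0.71 ± 0.11, SPRED2, an inhibitor of the RAS pathway, by 0.48 ± 0.083, ZNF106 by 0.38 ± 0.067, TNS3, a focal adhesion protein, by 0.35 ± 0.057 and OGG1, a DNA glycosylase for oxidised guanine, by 0.34 ± 0.054 (adjusted p = 0.0367, 0.0417, 0.046, 0.0367 and 0.0367). In these 5 the groups overlapped across series and the call held in 0 to 2 of the 9 leave-out fits.

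Further called genes outside the naming rule are given with their log2 change. Among those higher were UTRN (0.49), TMSB4X (0.39), B2M, ZNF275 (0.47), CELF2 (0.49), RUFY3 (0.37), SERPINI1 (0.41), TTC39C (0.38), BTN3A1 (0.39), OGFRL1 (0.34), RNASET2 (0.40), TCL6 (0.52) and the pseudogene H2BC19P (0.36). Among those lower were TG (-0.84), MTMR12 (-0.31), ABCF2-H2BK1 (-0.33), RNU6-33P and DNMT1 (-0.28). DNMT1, the maintenance DNA methyltransferase, was at 922, 876 and 922 CPM in the controls and between 721 and 785 CPM in the 6 knockdown libraries (adjusted p = 0.0409). The groups did not overlap, yet it kept its call in none of the 9 leave-out fits. Its annotated span (chr19:10133345-10231286, minus strand) overlaps that of S1PR2 (chr19:10221433-10231331, minus strand), also called lower. How estimated reads were divided between the 2 genes was not tested.

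**Figure D2:**
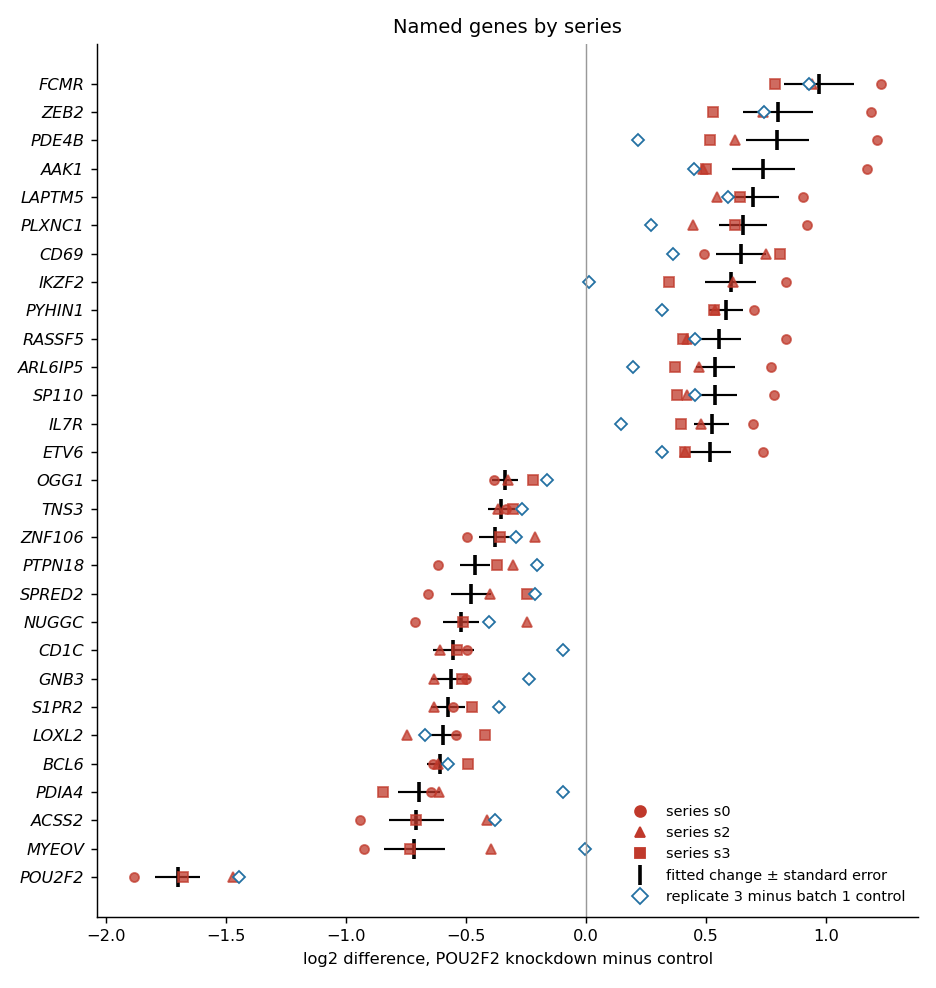
Log2 difference between POU2F2 knockdown and control (horizontal axis) for the named genes without SMIM11 that were called and passed the expression minimum of 5 CPM, 1 row per gene. Black ticks with bars give the fitted change and its standard error, red symbols the difference within each of the 3 series, and open diamonds knockdown 3 minus the batch 1 control, which the fit did not use. All red symbols lie on the side of the fitted change, and BCL6 lies between -0.49 and -0.64 in the 3 series.

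The gene with the smallest p, SMIM11, and the called small RNA RNU6-33P are uncertain as gene-level changes. SMIM11 has a near-identical copy, listed here as SMIM11B, between which estimated reads can be split. In control 7, 8 and 9 the first copy held 2.37 ± 0.461 CPM (SD, n = 3), less than SMIM11B with 8.50 ± 1.49 CPM. In the 6 knockdown libraries they held 10.7 ± 0.535 and 0.60 ± 0.998 CPM (SD, n = 6). Both copies summed to 10.9 ± 1.13 CPM in control and 11.3 ± 0.725 CPM in knockdown libraries, less apart than the spread of either. Knockdown 1 and 3, with the first copy at 0.252 and 1.76 CPM, looked like the batch 2 controls, and the batch 1 control (9 CPM) like the 6 knockdown libraries. RNU6-33P, a copy of the U6 small nuclear RNA gene family, held 56, 26 and 29 estimated reads in the controls, 0 in 4 and 2 in the other 2 of the 6 knockdown libraries, 0 in knockdown 1 and in the batch 1 control files 1 and 2, and 122 in knockdown 3.

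Lists of growth genes leaned below 0 without a call. Of 32 S phase genes none was called by edgeR, but 31 had a negative difference and 21 an unadjusted p below 0.05, with a median of -0.15. By series the median was -0.20 in s0, -0.10 in s2 and -0.09 in s3. CCNE1, a cyclin of S phase entry, was at -0.30 ± 0.069 (adjusted p = 0.0977). Of 27 ribosome biogenesis genes none was called, all 27 had a negative difference and 19 an unadjusted p below 0.05, with a median of -0.18 and of -0.14, -0.14 and -0.15 in s0, s2 and s3. WDR43, a factor of small ribosomal subunit assembly, was at -0.20 ± 0.051 (adjusted p = 0.141). Without the series block, in the same 9 libraries, the median of this list turned to 0.02. WDR43 was at 189, 87.6 and 73.2 CPM in controls 7, 8 and 9, a wider spread than that between the groups within a series. Genes of the G2 and M phases had a median of -0.02, near that of all genes, and none was called. For scale, the number of tested genes with an unadjusted p below 0.05 was 851 with a positive and 952 with a negative difference out of 15463.

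**Figure D3:**
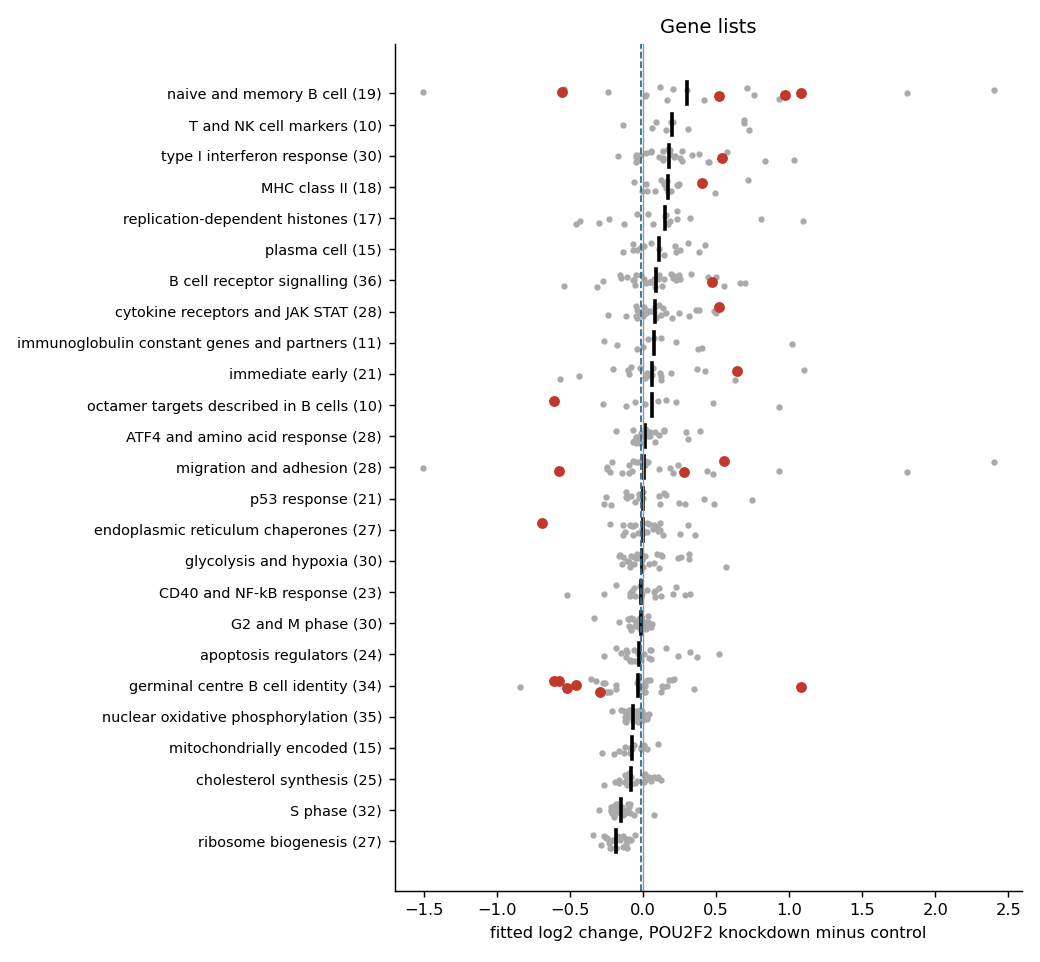
Fitted log2 change of the tested members of each gene list with at least 5 of them (number in brackets), 1 point per gene, with called genes in red, the list median as a black tick and the median of all 15463 genes as a dashed line. Naive and memory B cell genes have the highest median (0.30) and ribosome biogenesis genes the lowest (-0.18). The germinal centre list holds more called members than any other list (5 lower and 1 higher). The naive and memory list follows (3 higher and 1 lower). Of all 15463 genes 0.349% were called.

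Knockdown 1 and knockdown 3, which the fit did not use, were then set beside the 54 called genes. Knockdown 1 lay beyond all 3 batch 2 controls in the fitted direction for 46 of 54 genes, 28 of the 33 higher and 18 of the 21 lower. Among all tested genes the same held for 46.4% of those with a positive and 40.8% of those with a negative difference. Knockdown 1 differs widely from the other libraries (LAPTM5 at 531 CPM and PYHIN1 at 55.7 CPM, far above the rest), and it has no control of its series mark. PTPN18 was not lower there, at 371.5 CPM within the control range. Knockdown 3 differed from the batch 1 control in the fitted direction for 50 of 54 genes, 30 of the 33 higher and 20 of the 21 lower, against 57% and 60.7% of all genes. The median log2 difference was 0.27 for the genes that rose and -0.24 for those that fell, smaller than within series. In this pair BCL6 differed by -0.58, LOXL2 by -0.67, FCMR by 0.93, ZEB2 by 0.74 and S1PR2 by -0.36, while MYEOV (-0.00330), PDIA4 (-0.10), CD1C (-0.10) and IKZF2 (0.01) lay near 0. RNU6-33P, SMIM11, TMSB4X and SERPINI1 had the opposite sign.

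The same genes were read in SUDHL4, a second lymphoma line of the germinal centre type, in which 1 control library (2 files counted once) and 2 POU2F2 knockdown libraries exist, so no test of these libraries was made. POU2F2 was at 303 CPM in the SUDHL4 control and at 40.6 and 52.1 CPM in the knockdown. Both SUDHL4 knockdown libraries differed from the control in the OCI-Ly7 direction for 39 of 53 called genes that were tested there, 26 of 32 higher and 13 of 21 lower. Among all genes this held for 42% of the higher and 43% of the lower. BCL6 differed by -0.71 in SUDHL4, NUGGC by -0.76, GNB3 by -0.53 and PTPN18 by -0.43, and HLA-DMB by 1.10, FCRL5 by 1.82, ZEB2 by 1.64 and LAPTM5 by 1.01. In 9 genes both SUDHL4 libraries differed in the opposite direction, among them S1PR2 (0.30) and CD69 (-1.30). CD69 was near the floor in SUDHL4, at 0.80 CPM in the control and 0.35 and 0.26 CPM in the knockdown. Some genes of the same direction were also low there. PDE4B was at 0.11 CPM in the SUDHL4 control and 0.19 and 0.30 CPM in the knockdown. TG was at 0.57 CPM against 0.31 and 0.24 CPM, and FCRL5 at 1.37 CPM against 5.39 and 4.55 CPM. Whether the lines differ for any of the called genes was not tested.

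**Figure D4:**
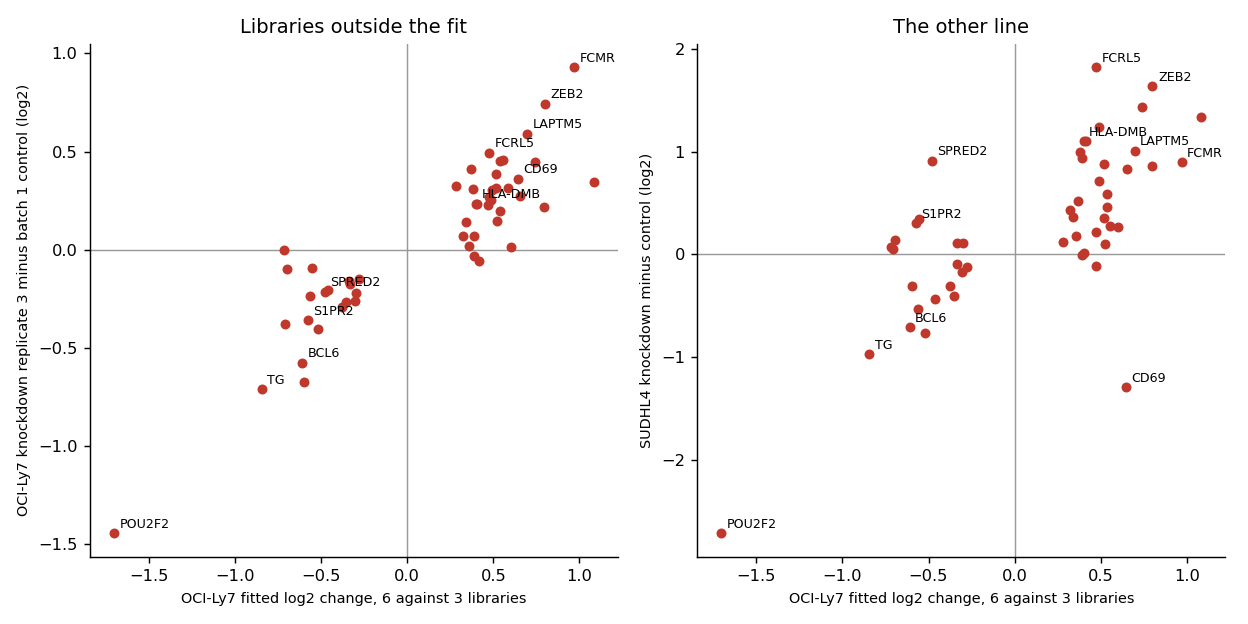
Each point is 1 of the called genes without SMIM11 and RNU6-33P, with the fitted log2 change of the 6 against 3 OCI-Ly7 libraries on the horizontal axis. The vertical axis is the log2 difference of OCI-Ly7 knockdown 3 minus the batch 1 control (left) or of the mean of 2 SUDHL4 knockdown libraries minus the SUDHL4 control (right). In the left panel nearly all points lie in the quadrants of equal sign, and in the right panel S1PR2, SPRED2 and CD69 are among those that do not.

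The POU2F2 knockdown was also set against the POU2AF1 knockdown of OCI-Ly7, the nearest other condition, with the POU2AF1 knockdown libraries of s0 and s2 (replicates 5 and 6) added. Of 16087 genes 425 differed between the 2 knockdowns by edgeR (2.64%), 256 higher and 169 lower with POU2F2 knockdown. The number fell to 29 without POU2AF1 knockdown 5 and to 227 without POU2AF1 knockdown 6, and leaving out 1 of the other libraries gave 238 to 673. With DESeq2 it was 788, of which 356 were higher, so the share of higher genes went from 60.2% to 45.2%. This comparison shares its POU2F2 knockdown libraries with the one above, so its values are given side by side only. BCL6 was at 137 and 139 CPM with POU2AF1 knockdown, below every POU2F2 knockdown library, and the difference between the knockdowns was 0.84 on the log2 scale (adjusted p = 6.36e-05). The same order held for LOXL2 (11.8 and 8.46 CPM with POU2AF1 knockdown, difference 1.36, adjusted p = 4.03e-05), GNB3 (6.65 and 8.40 CPM, 1.64, adjusted p = 6.36e-05) and S1PR2 (35.1 and 31.0 CPM, 0.67, adjusted p = 0.00112). BCL6, LOXL2, GNB3 and CD1C (difference 1.40) kept this call whichever of the 11 libraries was left out, and S1PR2, NUGGC (0.58) and PTPN18 (0.48) in 10 of 11, losing it without POU2AF1 knockdown 5 (adjusted p = 0.0821, 0.247 and 0.202). Of the 33 genes that rose 8 differed between the knockdowns, 2 of them higher with POU2F2 knockdown (SMIM11, which is uncertain as a gene-level change, and H2BC19P). Among the 6 that were lower with POU2F2 knockdown were ETV6 (88.0 and 105.8 CPM with POU2AF1 knockdown, difference -0.68, adjusted p = 0.00362) and ZEB2 (9.35 and 13.3 CPM, -0.96, adjusted p = 0.0136), and both lost this call without POU2AF1 knockdown 5 (adjusted p = 0.272 and 0.597). The others were TTC39C (-0.48), CELF2 (-0.57), RUFY3 (-0.38) and OGFRL1 (-0.36), and these 4 and H2BC19P also lost it without that library (adjusted p = 0.334 to 0.83). Of the 21 genes that fell 10 differed, POU2F2 lower and 9 higher with POU2F2 knockdown. HLA-DMB, at 160 and 175.5 CPM with POU2AF1 knockdown, differed by 0.01 between the knockdowns and was not called. POU2F2 was at 217 and 224 CPM with POU2AF1 knockdown, within the range of the batch 2 controls, and POU2AF1 at 89.0 and 84.5 CPM there.

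The promoters of the called genes were searched for the octamer, the element that OCT2 binds. The letters searched were ATGCAAAT and, for the other strand, ATTTGCAT, in the 300 bases from 250 before to 50 after the RefSeq start (GRCh38.p14). Of 10411 tested genes with such a promoter 147 held it (1.41%). Of the 54 called genes 44 had a promoter in the table, 29 higher and 15 lower, and none of them held the octamer in this window. Without the last base (ATGCAAA or TTTGCAT, which includes every octamer) 316 promoters matched (3.04%), and among the called genes that of CD1C did, 196 bases before the start on the gene's own strand. A search of these letters in this window says nothing about elements elsewhere. The promoters of BCL6 (chr3:187745419-187745718, minus strand, 50 bases after the start in capitals) and CD1C (chr1:158289673-158289972, plus strand, matching letters in capitals) are shown as those of the germinal centre gene with the smallest p among those that fell and of the only called gene with a match.
BCL6 promoter: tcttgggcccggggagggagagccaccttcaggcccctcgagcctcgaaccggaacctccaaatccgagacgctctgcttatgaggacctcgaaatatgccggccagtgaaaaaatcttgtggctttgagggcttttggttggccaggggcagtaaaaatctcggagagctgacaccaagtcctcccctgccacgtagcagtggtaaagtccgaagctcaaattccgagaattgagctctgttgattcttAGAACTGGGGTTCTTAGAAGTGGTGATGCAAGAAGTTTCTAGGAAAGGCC
CD1C promoter: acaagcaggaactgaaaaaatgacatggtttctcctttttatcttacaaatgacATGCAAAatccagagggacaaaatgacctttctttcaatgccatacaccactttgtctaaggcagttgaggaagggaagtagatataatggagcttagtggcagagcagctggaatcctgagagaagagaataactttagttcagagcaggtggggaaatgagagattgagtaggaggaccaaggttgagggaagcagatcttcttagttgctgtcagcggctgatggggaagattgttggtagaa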

How the data were processed

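RNA abundance was read from 1 deposited Salmon table per sample. Per the submitters' processing notes the authors used fastp and Salmon 1.5.1 with GRCh38.p13. The annotation release and library type were not given in the sources used here. The deposited values are estimated counts per transcript. They were summed per gene after matching 205964 of 227912 transcript identifiers to GENCODE 29 (98.36% to 98.74% of reads in the 14 files), and rounded. The deposited TPM values were not used. Genes were tested with edgeR 4.0.16 (TMM, a count minimum of 10, robust quasi-likelihood test, Benjamini-Hochberg adjusted p below 0.05) in R 4.3.3 with the series mark as a block, and DESeq2 1.42.0 was an alternative. Levels are TMM-scaled CPM. Levels of SMIM11 copies and marker genes are unscaled CPM.

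The members, the 27 gene lists (562 of 660 genes tested) and the tests were chosen with earlier results of these data known, and the rule for repeated files (a ratio to sampling noise below 2) was set after the repeats were seen. Named genes were the 15 called genes of largest change in each direction with a mean of at least 5 CPM and 1 direction in all series, up to 6 called members of each list, or its member of smallest p, and POU2F1, POU2F2 and POU2AF1. Tested on simulated data of this comparison (15114 genes), the fit recovered 54% of 100 genes changed by 0.5 and 76% of 100 changed by 1 on the log2 scale, and called 12 unchanged genes. Alternatives were other size factors, no filter, DESeq2, other blocks and libraries, and each library left out. Depth and precision are limited by the single control of each series. The values of 1 further called gene are not reported here.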

Additional observations from a re-analysis of the deposited data

Results flagged for a closer look

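In 14 of 106 groups of 4 or 8 libraries looked at, 1 library stood apart from the rest of its group by Dixon's criterion. Chance marks about 1 in 20 groups. Knockdown 1, the only library of series mark s1, gave 9 of them. It held the highest level of the knockdown group for PYHIN1 (55.67 CPM), PTPN18 (371.5 CPM), PLXNC1 (24.92 CPM), ACSS2 (24.17 CPM), RASSF5 (87.42 CPM), HHEX (4.791 CPM), LAPTM5 (530.8 CPM), ZEB2 (25.35 CPM) and SLC38A2 (169.8 CPM). It was not in the fit. For PTPN18 and ACSS2, which fell within series, its level lies with or above the controls.

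Knockdown 3, which carries the 48 h mark, gave 4. It held the highest knockdown level of POU2F2 (154.6 CPM), PDIA4 (73.24 CPM) and OGG1 (85.31 CPM) and the lowest of PDE4B (6.781 CPM). It was not in the fit either, and the batch 1 control was at 421.6, 78.34, 95.48 and 5.831 CPM for these genes. The batch 1 control itself stood apart for SMIM11 (9.385 CPM), the gene whose reads are shared with a near-identical copy. The cause of these values was not tested.

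In 9 called genes both SUDHL4 knockdown libraries lay on the other side of their control than the OCI-Ly7 libraries did. The difference between the lines was not tested, and SUDHL4 has a single control library. Of the genes that fell in OCI-Ly7, the log2 difference in SUDHL4 was 0.299 for S1PR2, 0.139 for PDIA4, 0.347 for CD1C, 0.107 for OGG1, 0.105 for MARCKSL1, 0.91 for SPRED2 and 0.0744 for MYEOV. Of those that rose, it was -1.3 for CD69 and -0.111 for ZNF275. Of these genes 3 were near the floor in SUDHL4. CD69 was at 0.80 CPM in the control and 0.35 and 0.26 CPM in the knockdown. CD1C was at 0.67 CPM in the control and 1.09 and 0.67 CPM in the knockdown. MYEOV was at 0.40 CPM in the control and 0.41 and 0.44 CPM in the knockdown.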

How the results depend on the processing

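The 54 calls (33 higher, 21 lower) became 62 (41 and 21) with RLE size factors and 74 (46 and 28) with the POU2AF1 knockdown libraries added. They became 633 (406 and 227) with no filter on low counts and 313 (196 and 117) with DESeq2, of which 53 of the 54 were part. They fell to 2 (1 and 1) with no series block, to 1 (0 and 1) with no series block and 7 knockdown libraries, and to 0 with all 8 knockdown libraries or with batch as a term over 4 control and 8 knockdown libraries, where 154 and 144 genes had an unadjusted p below 0.05. Leaving out 1 library gave 5 to 59 calls, with 1 to 37 higher and 4 to 22 lower. The 17 called members of the gene lists became 98 with no filter, 61 with DESeq2, 1, 0 and 1 with no series block (9 libraries, all 8 knockdown libraries, 7 of them), 0 with batch as a term, and 2 to 18 with 1 library left out.

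The POU2F2 level stayed lower in every setting, from -1.81 to -1.57 with 1 library left out. Its change was -1.51 with all 8 knockdown libraries and no series block and -1.51 with batch as a term, without a call in either. Of the 34 other named genes that were called, all 34 kept the call with RLE size factors, with no filter and with DESeq2, 29 with the POU2AF1 knockdown libraries added, 1 with no series block, and 3 to 31 with 1 library left out. The sign turned for PDIA4 (0.134 with all 8 knockdown libraries and no series block, 0.136 with batch as a term) and, among genes not called, for WDR43 (0.00282 with no series block, 0.015 with all 8 knockdown libraries, 0.0152 with batch), ATP5MC1 (0.0341 with no series block), TRAF1 (-0.0525 with no series block, -0.155 with all 8, -0.0481 with 7, -0.154 with batch) and POU2AF1 (-0.0838 without control 7, -0.00781 without knockdown 4, and up to 0.0862 without control 8). The cause was not tested.

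The title numbers were not used to pair the libraries in the main fit. Control and knockdown 7 correlated at -0.466. Control and knockdown 8 correlated at 0.382, within the range of pairs with the same series mark (0.331 to 0.686). With the title numbers as a replicate block, at 1 residual degree of freedom, 508 genes were called (262 higher, 246 lower). Of the 54 calls 21 were among them, with 51 list members. The sign turned for HSP90B1 (-0.249), JCHAIN (-0.292), POU2F1 (0.166) and POU2AF1 (-0.0362).

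The 425 genes that differed between the POU2F2 and POU2AF1 knockdowns became 922 with no filter and 788 with DESeq2, stayed at 425 with RLE size factors, and ran from 29 to 673 with 1 library left out. The fit within series rests on 1 control per series and 5 residual degrees of freedom, and low genes such as HHEX, near 1 CPM in the controls, are the least precise.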

Other observations

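Among 28 tested cytokine receptor and JAK STAT genes IL7R, described above, was the only call, with a median of 0.08 and 20 of 28 above 0. Over all genes tested 7050 of 15463 lay above 0. The lists that follow held no called gene. Of 15 tested plasma cell genes 10 had a positive difference (median 0.11), with HSP90B1, a chaperone of the endoplasmic reticulum, nearest to a call at 0.25 (edgeR adjusted p = 0.0532), and XBP1 at 0.30 (adjusted p = 0.0684, named after its value was seen). Of 11 immunoglobulin genes and partners the median was 0.08, with IGHM at -0.04, IGKC at 0.08 and JCHAIN at 0.22. The nearest to a call was TP53INP1 (0.48, adjusted p = 0.0659) among 21 p53 response genes, SLC38A2 (0.39, adjusted p = 0.0659) among 28 genes of the ATF4 and amino acid response, HRK (0.52, adjusted p = 0.0918) among 24 apoptosis regulators, PMVK (-0.19) among 25 cholesterol synthesis genes, TRAF1 (0.20) among 23 genes of the CD40 and NF-kB response, PFKM (-0.16) among 30 glycolysis and hypoxia genes, MT-ND1 (-0.20) among 15 mitochondrially encoded genes, ATP5MC1 (-0.21) among 35 nuclear genes of oxidative phosphorylation, H4C14 (1.10) among 17 histones, CDC20 (-0.16) among 30 genes of the G2 and M phases, TRBC2 (0.19) among 10 T and NK cell markers and FCER1G (0.77, near 1 CPM) among 4 myeloid markers.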
